A study of Mus musculus with 24 samples.

Results

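Synpo2, Ildr2, Syne1 and Mlec are 4 genes outside the core clock whose reads differed between control mice and mice without endothelial Bmal1. They were chosen from the 53465 genes of the deposited table because their level differed between the genotypes, and Synpo2 also because it varied with time in controls. All 4 were among the 15493 genes that passed a filter on low counts. The levels by genotype, and those of Synpo2 by time in controls, are therefore descriptions here and carry no test.

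RNA was sequenced from CD31-positive cells sorted from the brains of C57BL/6J mice kept in 12 h of light and 12 h of dark, with 1 library per mouse. The 12 control mice were Bmal1fl/fl, that is, they carried the floxed allele of Bmal1 without Cre. The 12 mutant mice were Bmal1fl/fl; Tie2cre, in which Cre is driven by the promoter of Tie2, a receptor of endothelial cells that some blood-forming cells also express. Zeitgeber time (ZT) counts hours from lights on, and 2 mice of each genotype were taken every 4 h from ZT2 to ZT22. The ages of these mice are not given in the sources used here. The study used both sexes for its expression data, and the sex of each mouse is not reported here.

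The products of the 4 genes work in different parts of the cell. Synaptopodin 2 (Synpo2, also called myopodin) binds and bundles actin and is best known from the Z-disc of muscle. ILDR2 (angulin-3) belongs to the angulins, membrane proteins that mark the corners where tight junctions of neighbouring cells meet, and endothelial tight junctions seal the blood-brain barrier. Nesprin-1, the product of Syne1, is a giant spectrin-repeat protein that links the nuclear envelope to actin through SUN proteins. Malectin, the product of Mlec, is a lectin of the endoplasmic reticulum that binds glucosylated N-glycans on newly made proteins.

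Each gene was located in GRCm38 with a GENCODE annotation. Synpo2 (ENSMUSG00000050315) lies at chr3:123076519-123236149 on the minus strand, and its exons cover 13089 bases. Ildr2 (ENSMUSG00000040612) lies at chr1:166254139-166316823 on the plus strand, with 8251 bases of exon. Syne1 (ENSMUSG00000096054) spans 530566 bases at chr10:5020917-5551482 on the minus strand, with 147 merged exons that cover 40491 bases. Mlec (ENSMUSG00000048578) is the most compact of the 4, at chr5:115142981-115158179 on the minus strand, with 6007 bases of exon. The counts are summed over each gene and do not separate isoforms, which matters most for Syne1, whose RefSeq entries start at 3 places.

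BMAL1 binds DNA as a dimer with CLOCK, its best known site being the E-box CACGTG, so the sequences before the starts of the 4 genes are shown. They are the 250 bases upstream of a RefSeq transcript start in GRCm38.p6, read along the strand of the gene, with matches to the motifs searched in capitals. The Ildr2 window is chr1:166253889-166254138 (plus strand), that of Syne1 chr10:5550693-5550942 (minus strand), that of Synpo2 chr3:123236150-123236399 (minus strand) and that of Mlec chr5:115158177-115158426 (minus strand).
Ildr2: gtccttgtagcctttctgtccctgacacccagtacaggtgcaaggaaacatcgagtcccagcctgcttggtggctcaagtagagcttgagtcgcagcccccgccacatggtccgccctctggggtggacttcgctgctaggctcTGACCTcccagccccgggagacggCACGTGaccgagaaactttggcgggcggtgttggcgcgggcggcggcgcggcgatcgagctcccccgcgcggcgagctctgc
Syne1: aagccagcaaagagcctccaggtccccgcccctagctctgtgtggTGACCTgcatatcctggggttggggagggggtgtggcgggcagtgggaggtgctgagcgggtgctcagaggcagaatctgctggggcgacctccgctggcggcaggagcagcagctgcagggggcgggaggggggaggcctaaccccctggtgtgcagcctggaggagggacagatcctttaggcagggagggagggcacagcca
Synpo2: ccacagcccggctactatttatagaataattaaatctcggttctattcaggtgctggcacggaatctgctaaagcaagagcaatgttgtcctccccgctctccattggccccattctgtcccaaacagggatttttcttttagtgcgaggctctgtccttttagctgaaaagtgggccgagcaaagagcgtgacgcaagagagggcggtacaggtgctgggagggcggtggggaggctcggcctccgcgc
Mlec: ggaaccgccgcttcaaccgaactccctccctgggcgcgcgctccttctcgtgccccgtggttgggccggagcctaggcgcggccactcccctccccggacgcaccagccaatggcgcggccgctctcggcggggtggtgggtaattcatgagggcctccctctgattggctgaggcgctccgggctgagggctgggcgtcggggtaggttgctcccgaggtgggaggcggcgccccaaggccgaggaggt

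Ildr2 was the member with an E-box in these windows. CACGTG stood 82 bases before its start, at chr1:166254057-166254062, and TGACCT, the reverse complement of AGGTCA, the core of ROR and REV-ERB sites, stood 106 bases before it. The upstream start of Syne1 had TGACCT 205 bases before it, and its other 2 starts had no match. The motifs searched on both strands were the E-box CACGTG, its variant CACGTT, the ROR element AGGTCA and the D-box TTATGTAA, none of which lay in the windows of Synpo2 and Mlec. Over 32851 RefSeq promoter windows of 300 bases (250 before and 50 after the start), 7.15% held CACGTG, 4.68% CACGTT, 16.3% AGGTCA and 0.938% TTATGTAA. A match describes the letters of the sequence and does not show that a factor binds there. The windows of Ildr2, Mlec and the upstream Syne1 start were rich in G and C, at 69.0%, 71.7% and 69.0%, against 57.3% for Synpo2 and a median of 52.7% over all windows.

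Synpo2 and Ildr2 were lower and Syne1 and Mlec higher in mutants. In the edgeR fit with time point as a factor, the log2 difference between mutants and controls was -0.56 for Synpo2 (SE 0.096), -0.76 for Ildr2 (SE 0.13), 0.44 for Syne1 (SE 0.077) and 0.49 for Mlec (SE 0.088), with n = 12 mice of each genotype. The median over all genes tested was 0.0033, with quartiles of -0.16 and 0.15. In that fit 0.271% of the 15493 genes had an adjusted p under 0.05, 0.116% lower and 0.155% higher in mutants, and all 4 members are among them by choice. On TMM-normalized reads, both mutants lay below both controls at 5 of 6 times for Synpo2 and for Ildr2, and 0.168% of genes did so at 5 or more times. Both mutants lay above both controls at 5 of 6 times for Syne1 and for Mlec, and 0.219% of genes did so at 5 or more times. Across all times the genotypes overlapped for each of the 4 genes, as for every gene tested.

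**Figure D1:**
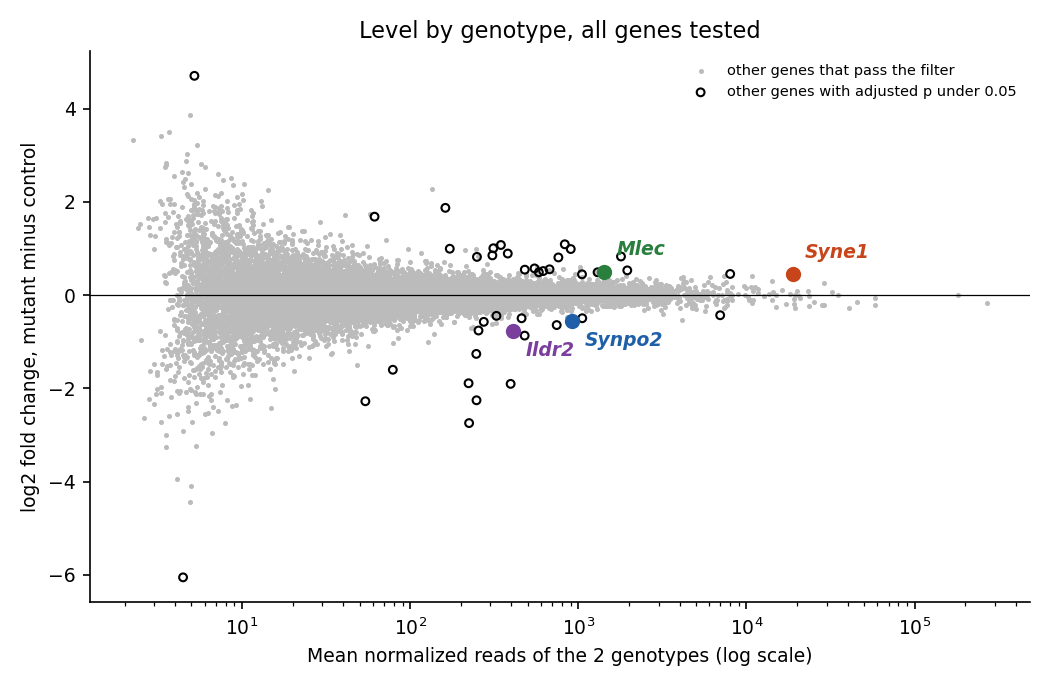
Log2 fold change (mutant minus control) against the mean of the normalized reads of both genotypes on a log scale, for 15493 genes. Grey points are genes tested, open circles the other genes with an adjusted p under 0.05, and coloured points the 4 genes chosen by this difference, between -0.76 and 0.49.

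The genes also differ in abundance. In controls Syne1 ranked 26 of the 15493 genes by reads, Mlec 919, Synpo2 1042 and Ildr2 2522. Divided by exon length, the level of Syne1 in controls was 393 reads per kb and that of Mlec 200 (199.6), with 84.2 for Synpo2 and 62.2 for Ildr2. The corresponding levels in mutants were 535, 276, 56.0 and 36.5 reads per kb, so the order of the 4 genes was the same in both genotypes. Syne1 ranked 464 of 15481 genes on this scale in controls.

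The reads of Synpo2 in the control mice, by time, were 1454 and 1743 (ZT2), 1300 and 1256 (ZT6), 897 and 900 (ZT10), 497 and 657 (ZT14), 1054 and 980 (ZT18) and 1064 and 1419 (ZT22). Those in the mutants were 619 and 882 (ZT2), 1021 and 951 (ZT6), 761 and 648 (ZT10), 390 and 568 (ZT14), 511 and 674 (ZT18) and 956 and 821 (ZT22). Controls were thus highest soon after lights on and lowest soon after lights off, mutants were lowest at ZT14 too, and the genotypes overlapped at ZT14 only. The mean was 1102 ± 352 reads in controls and 733.5 ± 197 in mutants (SD, n = 12 each), and all 12 mutants lay below the control median of 1059. The gap between the genotype means was 53.0% of the control mean at ZT2 and 41.7% at ZT18, and it was narrowest at ZT14, at 17.0%.

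For Ildr2 the 2 control mice of each time had 406 and 388 (ZT2), 654 and 541 (ZT6), 857 and 470 (ZT10), 400 and 494 (ZT14), 721 and 411 (ZT18) and 468 and 347 (ZT22) reads. The mutants had 201 and 352 (ZT2), 382 and 335 (ZT6), 448 and 267 (ZT10), 261 and 245 (ZT14), 247 and 206 (ZT18) and 311 and 356 (ZT22) reads. The control pairs of ZT10 and ZT18 were wide apart, with 1 high mouse each, while 8 of the 12 mutants lay below the lowest control. Mean reads were 513 ± 155 in controls and 301 ± 75.6 in mutants (SD, n = 12 each). The difference was largest at ZT18, where the mutant mean was lower by 60.0% (59.98%) of the control mean, and smallest at ZT22, where the pairs overlapped and it was lower by 18.2%. An antisense gene, 5330438I03Rik, overlaps exons of Ildr2 but had at most 23 reads in any library. Whether strand was used in the counting is not given in the sources used here.

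Syne1 reads were far more numerous, with 17520 and 18528 (ZT2), 17365 and 16077 (ZT6), 14377 and 10260 (ZT10), 14695 and 17874 (ZT14), 13440 and 19074 (ZT18) and 17726 and 13922 (ZT22) in controls. In mutants they came to 24896 and 22474 (ZT2), 19191 and 23798 (ZT6), 19847 and 14897 (ZT10), 24781 and 27267 (ZT14), 24519 and 18997 (ZT18) and 21715 and 17639 (ZT22). ZT10 was the low point of both genotypes, and the deposited reads overlapped narrowly at ZT18 and ZT22. The mean was 15905 ± 2603 in controls and 21668 ± 3611 in mutants (SD, n = 12 each), and 9 of 12 mutants lay above the highest control. Syne1 was the steadiest of the 4 in controls, with a coefficient of variation of 16.4%, against 27.7% for Mlec, 30.2% for Ildr2 and 32.0% for Synpo2. The mutant mean exceeded the control mean by between 24.3% (ZT22) and 59.8% (ZT14).

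Reads of Mlec in the control mice were 1528 and 1206 (ZT2), 747 and 821 (ZT6), 1432 and 864 (ZT10), 947 and 917 (ZT14), 1236 and 1377 (ZT18) and 1649 and 1665 (ZT22). The mutant mice had 1947 and 1752 (ZT2), 1011 and 1474 (ZT6), 1858 and 1712 (ZT10), 1738 and 1565 (ZT14), 1874 and 1514 (ZT18) and 1621 and 1796 (ZT22). Controls spread over a 2.11-fold range of time point means, from 784 at ZT6 to 1657 at ZT22, whereas 11 of 12 mutants lay above the control median of 1221. At ZT22 the control pair was at the level of the mutants and the means differed by 3.11%, while at ZT14 the mutant mean was higher by 77.2%. Over all times the mean was 1199 ± 333 in controls and 1655 ± 251 in mutants (SD, n = 12 each), with a coefficient of variation of 27.7% and 15.1%.

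**Figure D2:**
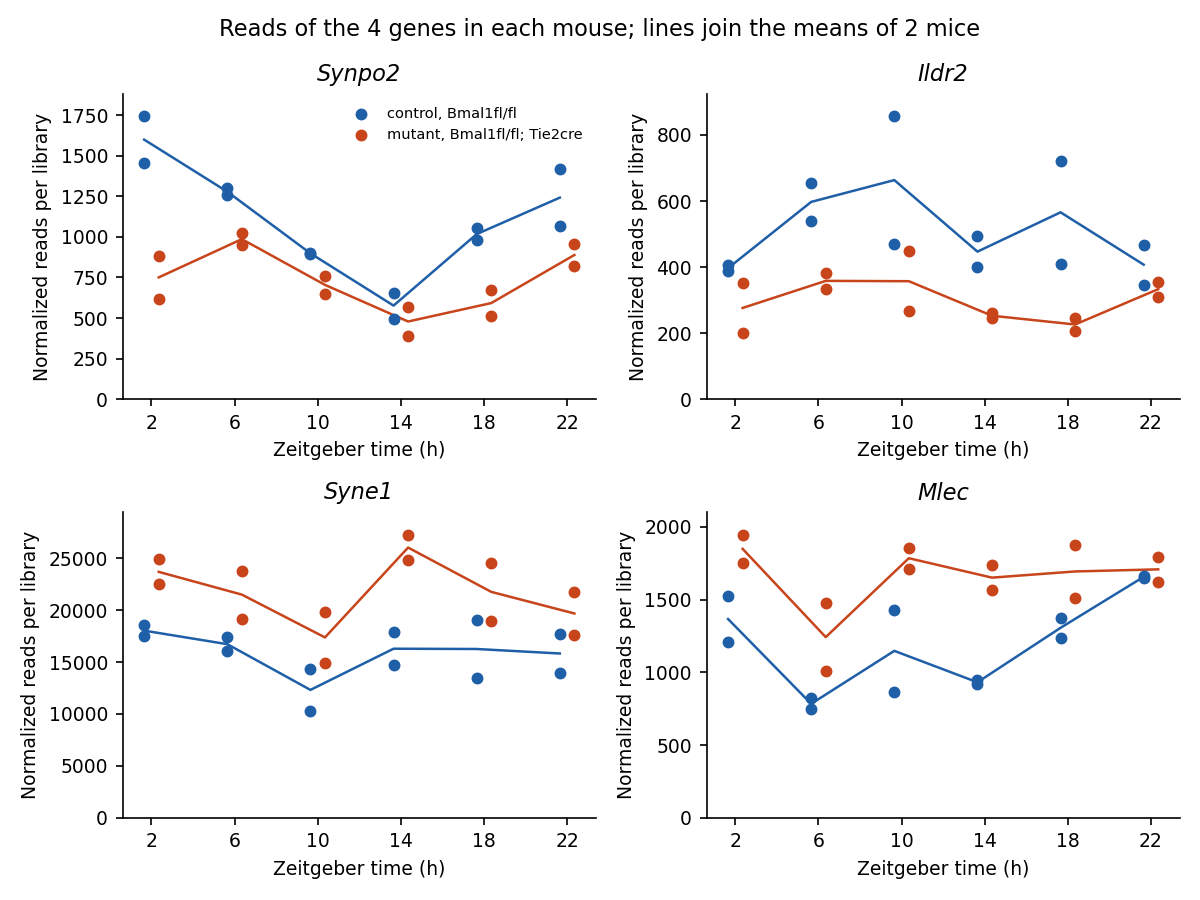
Normalized reads per library (y axis, from 0) against zeitgeber time in hours, 1 panel per gene, with 1 point per mouse and lines joining the means of 2 mice. Controls (blue) average 577 reads of Synpo2 at ZT14, where mutants (orange) average 479, and the Mlec pairs meet at ZT22.

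**Figure D3:**
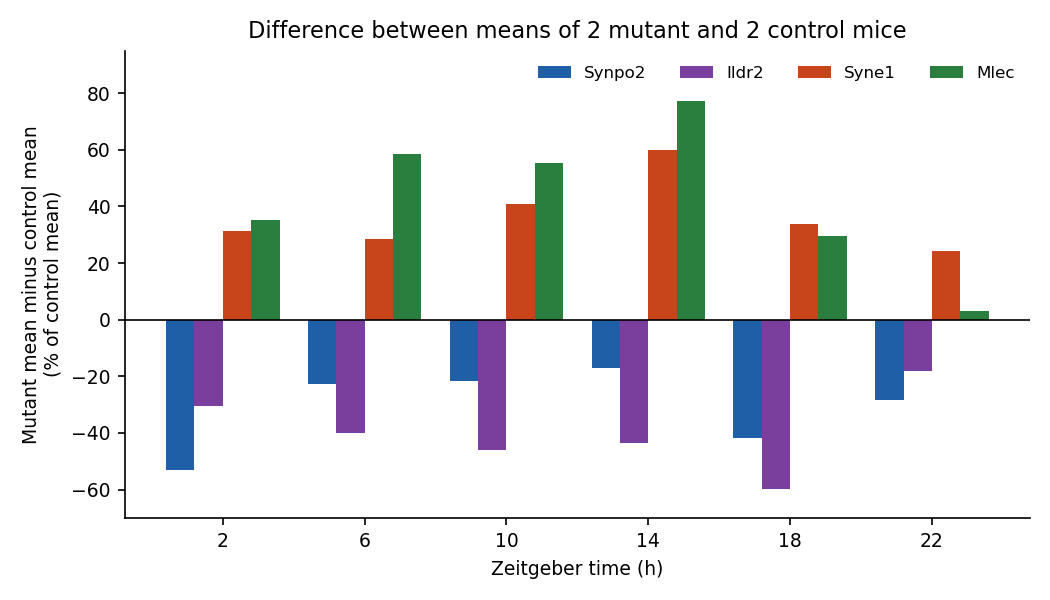
Mean of 2 mutant mice minus mean of 2 control mice, as a percentage of the control mean (y axis), at each zeitgeber time in hours, 1 bar per gene and no error bars. All bars of Synpo2 and Ildr2 are below 0 and all bars of Syne1 and Mlec above it, and that of Mlec shrinks to 3.11% at ZT22.

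To determine whether the 4 genes kept a daily pattern without Bmal1, 24-h rhythms were tested in the 12 mutants with meta2d, which combines JTK_CYCLE and Lomb-Scargle. None of the 4 had a q under 0.05, and neither had any other gene tested (0%), while 351 genes (2.27%) had an unadjusted p under 0.05. An edgeR cosinor fit called 0 genes as well, with 645 (4.16%) at an unadjusted p under 0.05. Synpo2 came nearest, with a mutant mean of 986 reads at ZT6 and 479 at ZT14, a 2.06-fold range (n = 12, meta2d p = 0.166, q = 1.00, edgeR cosinor p = 0.0134 and adjusted p = 1.00). Its fitted cosine peaked at ZT3.11 in mutants with a log2 amplitude of 0.41, beside ZT1.79 and 0.62 in controls, where time point means ranged from 577 to 1598.5 reads. With each of the 12 mutants left out in turn, the meta2d p of Synpo2 lay between 0.00966 and 0.561, and 1 fit was under 0.05. That fit left out the mouse of replicate 1 at ZT2, which had the fewest reads of its time (q = 1.00). In mutants the meta2d p was 0.799 for Ildr2, 1.00 for Syne1 and 1.00 for Mlec.

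In the 12 controls the rhythm was tested for the 3 genes that had not been chosen by it. Of all genes tested 0% had a meta2d q under 0.05, so the core clock genes did not pass either, and 377 (2.43%) had an unadjusted p under 0.05. The study listed cycling genes at a looser q and reports core clock genes as rhythmic. The edgeR cosinor called 14 genes (0.0904%), none of them Ildr2, Syne1 or Mlec. Mlec had the lowest meta2d p of the 3 (n = 12, p = 0.0814, q = 1.00), with a fitted peak at ZT21.5 (edgeR cosinor p = 0.0189, adjusted p = 0.924). With each of the 12 controls left out in turn, the meta2d p of Mlec lay between 0.00178 and 0.329, and 1 fit was under 0.05. That fit left out replicate 1 at ZT10, whose 1432 reads stood above the 864 of the other mouse (q = 0.760). Ildr2 (p = 0.918, n = 12) and Syne1 (p = 1.00, n = 12) showed no 24-h pattern that this test detected.

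The difference in rhythm between the genotypes was tested directly, in edgeR, by letting the 24-h cosine and sine terms vary with genotype. It passed for 0% of genes at an adjusted p under 0.05, and 660 genes (4.26%) had an unadjusted p under 0.05. The p was 0.182 for Mlec, 0.242 for Ildr2 and 0.810 for Syne1, each with an adjusted p of 1.00. For Mlec the log2 amplitude of the fitted cosine was 0.41 in controls and 0.12 in mutants. With each of the 24 mice left out in turn, the edgeR p of the difference lay between 0.00564 and 0.378, and 1 fit was under 0.05. That fit left out the control of replicate 1 at ZT10 (adjusted p = 1.00). No difference in the daily course of Mlec was detected after adjustment over all genes.

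The libraries were also compared on measures that could move with these results. Deposited totals lay between 6136404 and 6648311 reads, after the normalization by the authors. The 8 libraries of ZT6 and ZT18 had 2.68% to 3.90% of reads on mitochondrial genes against 5.78% to 17.4% in the other 16, and both control ZT14 libraries stood apart, with mitochondrial shares of 15.3% and 17.4% and TMM factors of 0.873 and 0.896 (0.957 to 1.04 in the others). Arntl, the gene of Bmal1, had 1 to 468 reads in controls and 81 to 354 in mutants. Its counts cover the whole gene rather than the floxed exon and do not check the deletion.

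Between ZT6 and ZT18 and the other times, 16.7% of genes differed in edgeR (5.85% higher and 10.9% lower at ZT6 and ZT18). Of the 3 members tested none passed. The log2 difference was 0.12 for Ildr2 (adjusted p = 0.686), 0.042 for Syne1 (adjusted p = 0.860) and -0.26 for Mlec (unadjusted p = 0.0378, adjusted p = 0.151). The sample titles of the ZT6 and ZT18 libraries carry an unbroken run of numbers of their own, and what the numbers stand for is not given. That run, the mitochondrial share and the time of day cannot be told apart in this contrast. The tests of 24-h rhythm include these libraries too.

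Without both control ZT14 libraries the genotype differences were -0.60 for Synpo2, -0.74 for Ildr2, 0.41 for Syne1 and 0.44 for Mlec on the log2 scale. The i5 index of the library barcode coincided with genotype at ZT2 and ZT10, where controls carried one index and mutants the other. With the index in the fit the log2 differences were -0.49 for Synpo2, -0.81 for Ildr2, 0.43 for Syne1 and 0.46 for Mlec. Within ZT6 and ZT18, where all libraries share an index, they were -0.55, -1.002, 0.42 and 0.54 in the same order, and within ZT14 and ZT22, which share the other, -0.41, -0.59, 0.46 and 0.39.

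Bulk libraries cannot tell fewer cells of a type from less RNA per cell, so markers of the cell types that the sort could hold were read beside the 4 genes. All 10 brain endothelial markers passed the filter and none had an adjusted p under 0.05 in edgeR, but 8 of 10 had positive log2 differences, as Syne1 and Mlec did, with a median of 0.083. Cldn5 (log2 0.28), Kdr (0.199) and Ly6c1 (0.18) had an unadjusted p under 0.05, as did 6.95% of all genes (1077). The sum of the 10 markers ranged from 76238 to 119424 TMM-normalized reads in controls and from 85529 to 125302 in mutants, and its part in the levels of Syne1 and Mlec was not tested. Synpo2 is also a smooth muscle gene. None of the 15 mural markers had an adjusted p under 0.05 between genotypes in edgeR (median log2 0.048). Their sum ranged from 13311 to 27379 TMM-normalized reads in controls and from 11083 to 27460 in mutants. Myh11, the smooth muscle myosin, was at 2250 and 2173 reads. At ZT6 and ZT18 mural markers were above the other times, by log2 0.35 (Vtn) to 2.83 (Cnn1), with Myh11 at 1.34. Their part in the course of Synpo2 over time was not tested.

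Some marker lists leaned the same way as Synpo2 and Ildr2. All 6 astrocyte markers, all 6 oligodendrocyte markers, all 5 red blood cell markers and all 5 venous markers had negative log2 differences, with medians of -0.22, -0.37, -0.34 and -0.16, and none had an adjusted p under 0.05 in edgeR. At an unadjusted p under 0.05 there were 2 astrocyte, 2 oligodendrocyte, 3 red blood cell and 0 venous markers, against 6.95% of all genes. Their sums overlapped between the genotypes, from 1700 (1699.8) to 5853 in controls and 1664 to 5561 in mutants for astrocytes, 2782 to 19083 and 2184 to 12191 for oligodendrocytes, 2207 to 9577 and 1474 to 7082 for red blood cells, and 3037 to 9875 and 3565 to 8284 for venous cells. Of the 6 arterial markers Gkn3 was lower in mutants (log2 -2.28, adjusted p = 0.00447) and Sema3g was at 0.302 (unadjusted p = 0.00286), 3 of the 6 being positive and 3 negative, with sums of 1882 to 3710 (3709.9) and 2565 to 4223. Of the 7 neuron markers 6 had negative log2 differences, with a median of -0.11. None of the 7 microglia, 7 neuron, 6 fibroblast and 3 of 5 ependymal markers that passed the filter had an adjusted p under 0.05 between genotypes, and Tmem212 was at 0 reads in all libraries. Their sums were uneven between libraries, from 205 to 1777 in controls and 159 to 1282 in mutants for neurons, 292 to 702 and 348 to 706 for fibroblasts, and 2828 to 62912 and 1751 to 18323 for ependymal and choroid plexus cells. In the study, myelin was removed with beads and CD90-positive cells were depleted before the CD31 sort, whose purity was checked. The part of the cell types read here in the levels of Synpo2 and Ildr2 was not tested.

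Log2 differences of ZT6 and ZT18 from the other times were read for other marker lists too. Brain endothelial markers were at 0.17 (Slco1a4) to 0.58 (Kdr), and mural markers, given above, were also positive. Oligodendrocyte markers ran from -6.33 (Mog) to -1.21 (Cnp) and neuron markers from -3.78 (Rbfox3) to -1.49 (Slc17a7). Astrocyte markers lay between -1.97 (Gfap) and 0.14 (Gja1). Microglia markers differed in this contrast as well. Their sum ranged from 614 to 15747 TMM-normalized reads in controls and from 729 to 18727 in mutants, and all 7 were lower at ZT6 and ZT18 than at the other times in edgeR, by log2 differences from -4.12 (Cx3cr1, adjusted p = 3.26e-17) to -2.99 (Mrc1, adjusted p = 2.47e-05). Without the ZT6 and ZT18 libraries the genotype differences were -0.57 for Synpo2, -0.65 for Ildr2, 0.45 for Syne1 and 0.47 for Mlec on the log2 scale, and the values within those times stand beside the index results. The members were chosen by this difference over all libraries, so its values in a part of them are descriptions. The part of microglia and of the other cell types in the courses over time was not tested.

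None of the relatives of the 4 genes passed the test. Synpo, the founding synaptopodin, had 340.0 reads in controls and 341 in mutants (log2 -0.014, SE 0.17, edgeR adjusted p = 0.995), and Synpo2l averaged under 5 reads. Of the other 35 actin cross-linking and Z-disc genes, 31 passed the filter and 0 had an adjusted p under 0.05 (all genes, 0.271%), with a median log2 difference of 0.031 against 0.0033 over all genes. At an unadjusted p under 0.05 there were 2 of 31, beside 6.95% of all genes, namely Pdlim7 (log2 0.31, adjusted p = 0.497) and Zyx (0.23, adjusted p = 0.628), LIM-domain proteins of actin structures. The cross-linkers Actn1, Actn4 and Flna were at -0.012, -0.024 and 0.030.

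Lsr, the angulin that is most read in these cells, had 1904 reads in controls and 2206 in mutants (log2 0.22, SE 0.073, unadjusted p = 0.00510, edgeR adjusted p = 0.369), on the other side of 0 from Ildr2. Ildr1 averaged 4.33 and 1.83 reads and was not tested. Among the other 27 genes of tricellular and tight junctions 23 passed the filter and 0 were called (all genes, 0.271%), with a median of 0.028. With no filter beyond 1 read, 1 gene of this list was called. Genes with an unadjusted p under 0.05 included Lsr and Cldn5, which were higher, and Cldn11 and Jam2, which were lower. Marveld2 (tricellulin), the partner of the angulins at cell corners, had a log2 difference of 0.31 (SE 0.21, adjusted p = 0.840).

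Syne2, which encodes the second giant nesprin, had 5781 reads in controls and 5838 in mutants (log2 0.0025, SE 0.082, edgeR adjusted p = 0.997). Syne3 was at 0.44 (SE 0.25, unadjusted p = 0.0886), a value like that of Syne1 but from 88.3 reads in controls, and Syne4 did not pass the filter. The SUN proteins that anchor nesprins in the nuclear envelope were at 0.18 (Sun1, unadjusted p = 0.0733) and 0.029 (Sun2). Of 25 other genes of this list 21 passed the filter, with a median of 0.064. Of these, 0 were called (all genes, 0.271%) and 0 had an unadjusted p under 0.05 (all genes, 6.95%).

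For Mlec, the ribophorins with which malectin associates in the oligosaccharyltransferase were at -0.054 (Rpn1, SE 0.092) and -0.027 (Rpn2, SE 0.081), with edgeR adjusted p of 0.961 and 0.982. All 30 other genes of N-glycan transfer and quality control passed the filter and 0 were called (all genes, 0.271%), with a median of 0.018. The 1 gene with an unadjusted p under 0.05 was Magt1, a subunit of that enzyme (log2 0.35, unadjusted p = 0.0101, adjusted p = 0.500). DESeq2 and limma-voom also called 0 genes of these 4 lists, and edgeR with no filter beyond 1 read called 1, in the junction list.

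**Figure D4:**
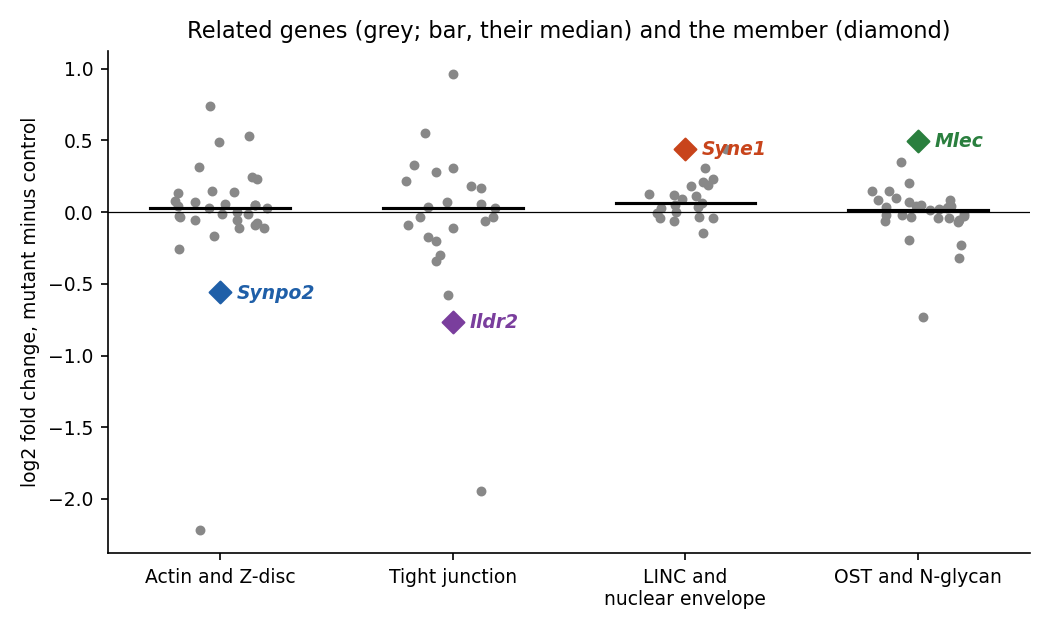
Log2 fold change (mutant minus control) of the genes of 4 lists that passed the filter (grey points, spread sideways for display, with bars at their medians) and of the member of each list (diamonds). The medians lie between 0.018 and 0.064, while the members, chosen by this difference, lie between -0.76 and 0.49.

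Of the nearest genes on either side of the members, 1 passed the test (all genes, 0.271%), beside Mlec. Unc119b, which encodes a carrier of lipid-modified proteins, lies 8006 bases downstream of Mlec on the same strand and rose in mutants (log2 0.57, SE 0.11, edgeR adjusted p = 0.00557). Its median was 429 reads in controls, with a range of 312 to 687, and 635.5 in mutants, with a range of 434 to 956, so the genotypes overlapped. The gene on the upstream side, Cabp1, lies 10510 bases away on the same strand, with 63.4 reads in controls and 103 in mutants (log2 0.75, SE 0.27, unadjusted p = 0.00932, adjusted p = 0.494).

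The nearest protein-coding genes of the other members did not pass the test. Beside Synpo2, Sec24d was at 0.21 (SE 0.15, adjusted p = 0.847) and Myoz2, a partner of muscle Z-discs, was listed at 0 reads. Beside Ildr2, Tada1 was at 0.31 (SE 0.22, adjusted p = 0.848) and Mael averaged under 2 reads. Beside Syne1, Esr1 was at -0.13 (SE 0.50) and Myct1 at 0.0014 (SE 0.19). Windows of 250 kb on each side, a width chosen after the values were seen, were read for each member. In them 5, 3, 3 and 15 other genes of Synpo2, Ildr2, Syne1 and Mlec passed the filter. Unc119b was the 1 gene called, beside 0.271% of all genes. In the same order 1, 1, 0 and 4 of these window genes had an unadjusted p under 0.05, beside 6.95% of all genes. They were Usp53 (-0.24) near Synpo2, Pogk (-0.27) near Ildr2, and Unc119b, Cabp1, Coq5 (-0.43) and Acads (-0.37) near Mlec.

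**Figure D5:**
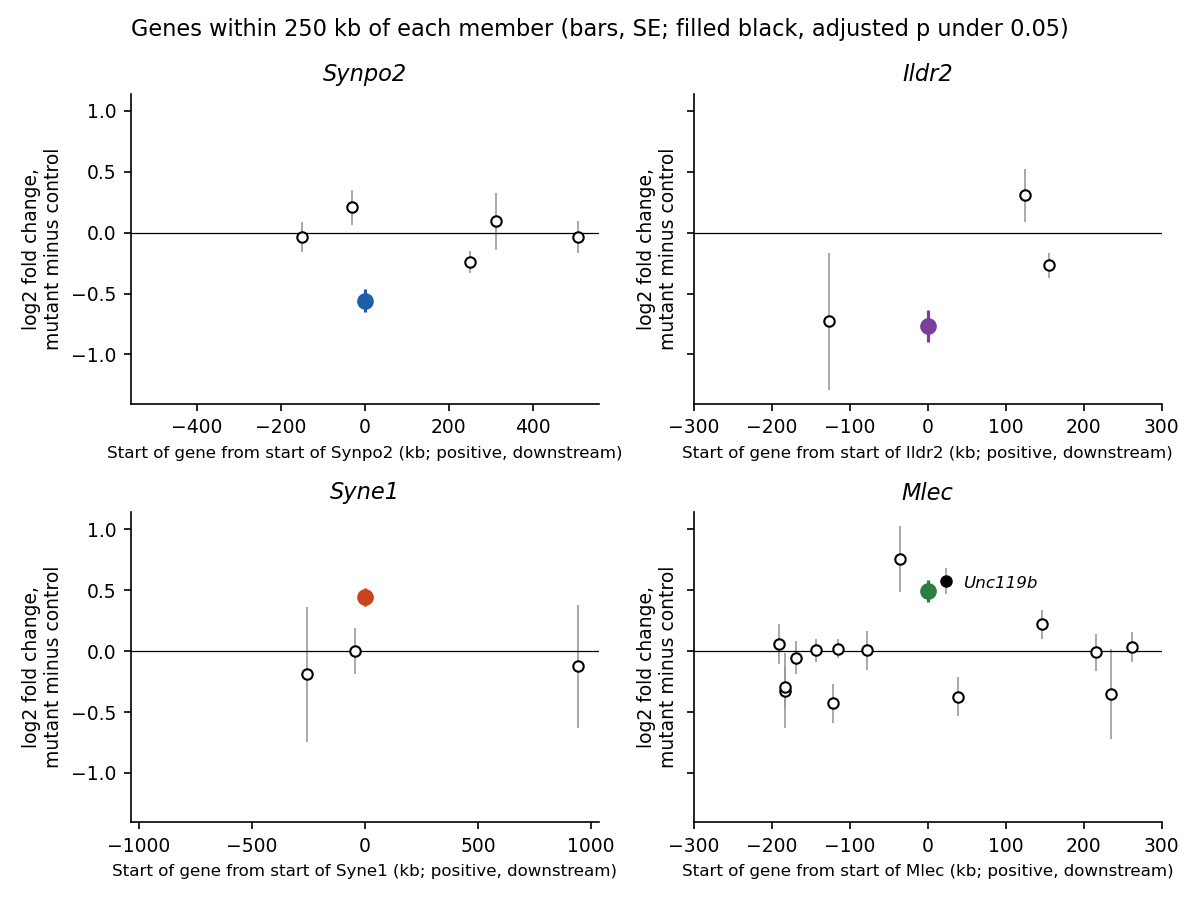
Log2 fold change (mutant minus control) with its SE of genes within 250 kb of each member against the distance between gene starts in kb, positive in the direction in which the member is transcribed. Coloured points are the members, the filled black point is Unc119b at 0.57, and open points are genes with an adjusted p over 0.05.

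For each member the 3 genes with the most similar course over the 24 libraries were found by Pearson's r of log2 values scaled to library size, as a description in which the shared genotype difference takes part. Those of Ildr2 were Fmo2 (r = 0.77), Dach1 (0.77) and Per3 (0.73), of which Fmo2, a flavin monooxygenase, and the clock gene Per3 were themselves lower in mutants (log2 -2.75 and -1.89, edgeR adjusted p = 0.00447 and 4.18e-05). Those of Mlec were Npas2 (r = 0.83), Trim8 (0.82) and Fam124b (0.77). Npas2, a partner of BMAL1 that can stand in for CLOCK, was at 64.3 reads in controls and 204 in mutants (log2 2.27, adjusted p = 0.0573), and Fam124b rose in mutants (1.87, adjusted p = 0.0115). Over the 12 controls alone and the 12 mutants alone, r was 0.77 and 0.72 for Mlec with Npas2, 0.46 and 0.601 for Ildr2 with Fmo2, and 0.52 and 0.39 for Ildr2 with Per3. Other pairs were as alike or more alike within a genotype, such as Ildr2 with Dach1 (0.85 in controls) and Mlec with Trim8 (0.84 in controls).

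Synpo2 was most like Rabggtb (r = 0.75), Adamts12 (0.74) and Zfp521 (0.72), and Syne1 most like Lama5 (0.76), Abca3 (0.75) and Shank3 (0.74), none of which had an adjusted p under 0.05 between genotypes in edgeR. Lama5 encodes a laminin chain of the vascular basement membrane, with 2196 reads in controls and 2581 in mutants (log2 0.23, SE 0.077, adjusted p = 0.362). No relation between the members within a genotype passed the adjustment. Of 12 relations (6 pairs of genes in each genotype, n = 12 mice) the lowest p was that of Synpo2 and Ildr2 in mutants, where r was 0.62 (permutation p = 0.0319, adjusted p = 0.383) and rho 0.67 (permutation p = 0.0200, adjusted p = 0.240). It was 0.62 without the 2 mice farthest from the median of Synpo2, and 0.55 in the 8 mutants outside ZT6 and ZT18. In controls r of the same pair was -0.24 (permutation p = 0.457, adjusted p = 0.767).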

How the data were processed

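RNA from sorted CD31-positive cells was made into strand-specific libraries (SMARTer Stranded Total RNA-Seq Kit v2) and sequenced on 3 lanes. The authors aligned reads with STAR 2.5.3a to GRCm38, merged lanes with SAMtools 1.3.1, and counted Ensembl 91 genes with PORT, and they deposited normalized read counts as whole numbers, which were used as counts. The original depth is no longer in these values, so the counting error behind a count can only be judged from normalized reads.

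Groups came from the sample titles. The members and gene lists were chosen with earlier results of these data known. As in the study, a gene was kept if its count reached 5 in 6 or more mice of either genotype. Levels, ZT6 and ZT18 against other times, and rhythm differences (interaction with cosine and sine) were tested with edgeR 4.0.16 (R 4.3.3, TMM). Those tests used quasi-likelihood and Benjamini-Hochberg over all genes. Rhythms were tested with a rewritten meta2d using the run settings of the study. The q of 0.05 used here is stricter than the cut-off by which the study listed cycling genes. DESeq2 1.42.0, limma 3.58.1 (voom), other filters and normalizations, a replicate block, index and time subsets, and each mouse left out were alternatives. Fits without the control ZT14 libraries and with mitochondrial share as a covariate were added after seeing the data. Genes named are the members, their family and nearest neighbours, list genes past the threshold, 3 most similar genes each and Arntl, and others (list genes with an unadjusted p under 0.05, markers, Actn1, Actn4, Flna, Marveld2, other genes within 250 kb, 5330438I03Rik) were chosen after their values were seen. Some list genes are not reported here. The annotation (GENCODE M21) held 53360 of 53465 identifiers. Summaries used Python 3.11.15, NumPy 2.4.6, pandas 2.3.3, SciPy 1.17.1 and matplotlib 3.10.9.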

Additional observations from a re-analysis of the deposited data

How the results depend on the processing

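The log2 difference between genotypes kept its direction for each member in all 37 alternatives, from -0.61 to -0.41 for Synpo2, -1.002 to -0.59 for Ildr2, 0.39 to 0.47 for Syne1 and 0.39 to 0.54 for Mlec. Leaving out each mouse in turn gave -0.61 to -0.50 (-0.503), -0.83 to -0.68, 0.41 to 0.47 and 0.45 to 0.53 in that order. The number of genes with an adjusted p under 0.05, 42 in edgeR, was 99 with DESeq2, 141 with no filter beyond 1 read, 7 with a term for the i5 index, 3 in ZT6 and ZT18 alone and 2 in ZT14 and ZT22 alone, where fewer libraries were fitted. It was 11 without both control ZT14 libraries and 27 with mitochondrial share as a covariate, both added after seeing the data. With 1 mouse left out it lay between 25 (without the mutant at ZT6 of replicate 2) and 68 (without replicate 1 of that pair). The cause was not tested. The ZT6 and ZT18 difference of Ildr2, 0.12, was -0.021 in mutants alone and 0.27 in controls alone, and from 0.057 (without the control of replicate 1 at ZT18) to 0.205 (without that of replicate 1 at ZT10) with 1 mouse left out. That of Syne1, 0.042, ranged from 0.0078 (without the control of replicate 2 at ZT10) to 0.084 (without that of replicate 1 at ZT18), and none of these passed the threshold. The junction list, with 0 genes called, had 1 with no filter beyond 1 read. Rhythm and rhythm difference calls were 0 for the members tested in every alternative.

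Replicate numbers did not pair the mice: over 6 times, deviations of equally numbered mice of both genotypes correlated between -0.0087 and 0.015. With the number as a block, 45 genes were called, and the members were at -0.56, -0.75, 0.44 and 0.50 (0.496). The study mentions independent experiments, but the labels do not assign the mice to them, so p-values measure the spread between these mice. With 2 mice per time, differences at a single time have no test.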
